A study of Mus musculus with 4 samples.

Results

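The neighbourhood of Klf4 on chromosome 4 was described from ChIP-seq of mouse colonic epithelium, with all coordinates in build mm9. The window ran over 350 kb, from 55.45 to 55.8 Mb, and every listed H3K27ac region or HNF4A peak with at least 1 base inside it was taken. It held 7 of the 1000 H3K27ac regions that the authors listed as enriched in water and 0 of the 1000 listed as enriched in dextran sulfate sodium (DSS). It held 17 of 17886 HNF4A peaks of the water library and 13 of 10688 of the DSS library. The window was chosen by the raw H3K27ac tag counts and the HNF4A peak lists themselves, as a place where water-enriched regions crowd, so the number of those regions and the direction of their H3K27ac difference were fixed by the choice, which also favoured more tags between nucleosomes in DSS, and these are not findings. The number of HNF4A peaks in the window, and the share of them found in both lists, were likewise open to this choice.

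The epithelium was scraped from adult mice aged 2 to 4 months, which had drunk water only or 3% DSS for 6 days. DSS is toxic to the lining of the colon and is used to induce colitis. The 4 groups were H3K27ac in water, H3K27ac in DSS, HNF4A in water and HNF4A in DSS, with 1 library each, so no difference has a replicate check and no p-value is given. The sources used here give neither strain nor sex, nor whether animals were pooled. Scrapings can hold several cell types, and no expression data were analysed here that would check them. A fall in tags from fewer cells of a type cannot be told apart from a fall in tags per cell.

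Klf4 encodes a zinc-finger transcription factor of the Krüppel-like family. In the colon it is known from differentiated surface cells and is needed for goblet cells, which secrete the mucus layer, to mature. H3K27ac, an acetylation of histone H3, marks active enhancers and promoters, and enhancers can act on a gene from a long distance. HNF4A, a nuclear receptor, acts as a transcription factor in intestinal epithelial cells and activates genes of their mature state. In the RefSeq gene order of mouse build GRCm38.p6, the nearest protein-coding neighbours of Klf4 were Rad23b, a gene of DNA repair and protein turnover, on the lower side and Actl7b, an actin-like gene, on the higher side. Between Klf4 and these neighbours the table placed 4 and 11 other genes, none of them protein-coding.

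All 7 regions had the same nearest reference point. The deposited distance of a region, taken from its centre toward lower coordinates, led to position 55545347 for each of them, with a spread of 0.5 bp, whereas toward higher coordinates the points spread over 229696 bp. The file header does not name this point. It is read here as the start of Klf4, a reading that was not checked against an mm9 annotation. No other reference point of the authors could lie closer to the farthest region, so none lay between this point and position 55917805. Klf4 is transcribed toward lower coordinates, and positions above the point are upstream of the gene under this reading. Regions and peaks are named below by the distance of their centre from this point.

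The bases directly upstream of Klf4 are shown because the HNF4A peak nearest to the reference point was listed in DSS alone. They come from RefSeq (GRCm38.p6, chr4:55532476-55532725, minus strand, coordinates of another build than those of the peaks), end at the base before the start, and carry GC boxes (GGGCGG on either strand) in capitals.
Klf4 upstream bases: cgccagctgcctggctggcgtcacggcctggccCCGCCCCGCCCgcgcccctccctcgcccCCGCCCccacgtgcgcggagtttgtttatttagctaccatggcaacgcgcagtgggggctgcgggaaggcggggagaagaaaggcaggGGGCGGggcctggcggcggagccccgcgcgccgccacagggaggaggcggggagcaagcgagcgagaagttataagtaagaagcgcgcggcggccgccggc
The GC box, a short motif that SP and Krüppel-like factors bind, was found 4 times in 3 separate runs, the first of which holds a pair of overlapping matches. Of 32851 upstream sequences of the same length, 32.7% held at least 1 GC box. The stretch was 74% G or C, against a median of 52.4% over all of them. The HNF4A motif CAAAGTCCA, held by 0.384% of the upstream sequences, was found on neither strand, and nor was its shorter core CAAAG, which lies within it and was held by 48.6%. This says only that these letters are not in this window of 250 bases, which ends before the DSS peak begins under the reading above. The sequences of the regions and peaks themselves were not used here, since no genome of build mm9 was at hand.

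**Figure D1:**
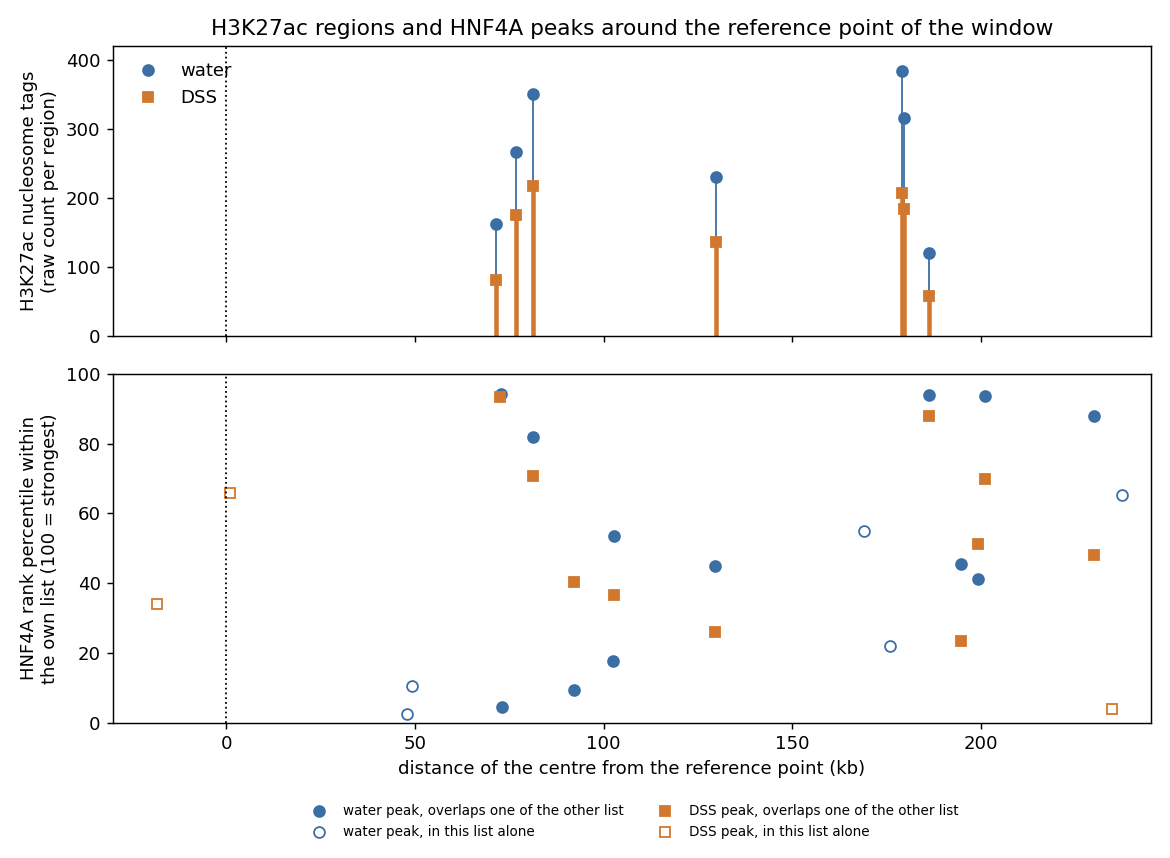
The upper panel plots raw H3K27ac nucleosome tags of the 7 regions in water (circles) and DSS (squares), and the lower panel the rank percentile of each HNF4A peak within its own list, both against distance in kb from the reference point (dotted line). All 7 regions lie between 71.4 and 186.2 kb on 1 side, most HNF4A peaks are filled because they overlap a peak of the other list, and the open square beside the dotted line is the peak 0.9 kb from the point, in the DSS list alone.

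H3K27ac was lower in DSS in all 7 regions by the tags in the columns headed "nuc", taken here for tags that fall on nucleosomes. The regions lay between 71.4 and 186.2 kb from the reference point and spanned 115 kb, from 55616481 to 55731861. They fell into a group of 3 with centres within 10 kb of each other, a lone region, and a group of 3 near the far end. Their water counts ran from 121 to 384 tags, and their DSS counts from 58 to 217. The ranges over the 7 regions overlap between the libraries, but each region on its own held fewer tags in DSS.

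The group nearest to Klf4 had 3 regions. The region at 71.4 kb (55616481 to 55616976) had 163 nucleosome tags in water against 81 in DSS. With tags scaled by the library totals of 10143920 in water and 10329416 in DSS, this was 2.05-fold higher in water (95% interval 1.56 to 2.71, exact conditional). The region at 76.9 kb (55621906 to 55622551) held 267 and 176 tags, a 1.54-fold difference (1.27 to 1.88). This was the smallest difference of the 7. The region at 81.2 kb (55626271 to 55626886) held 351 and 217 tags, which is 1.65-fold higher in water (1.39 to 1.96). These intervals and all that follow cover counting error only.

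The lone region at 129.7 kb (55674746 to 55675371) had 231 water tags and 136 DSS tags and was 1.73-fold higher in water (1.39 to 2.15). The far group held the strongest and the weakest of the 7 regions. The region at 179.2 kb (55724231 to 55724801) had 384 and 207 tags and was 1.89-fold higher in water (1.59 to 2.25). It overlaps the region at 179.6 kb (55724601 to 55725221), which held 316 and 184 tags, a 1.75-fold difference (1.45 to 2.11), so part of their tags are the same. The region at 186.2 kb (55731291 to 55731861) had 121 and 58 tags and was 2.12-fold higher in water (1.54 to 2.96). Per kb of region, the water level ran from 212 nucleosome tags at 186.2 kb to 674 at 179.2 kb, and the DSS level from 102 to 363 at the same 2 regions.

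**Figure D2:**
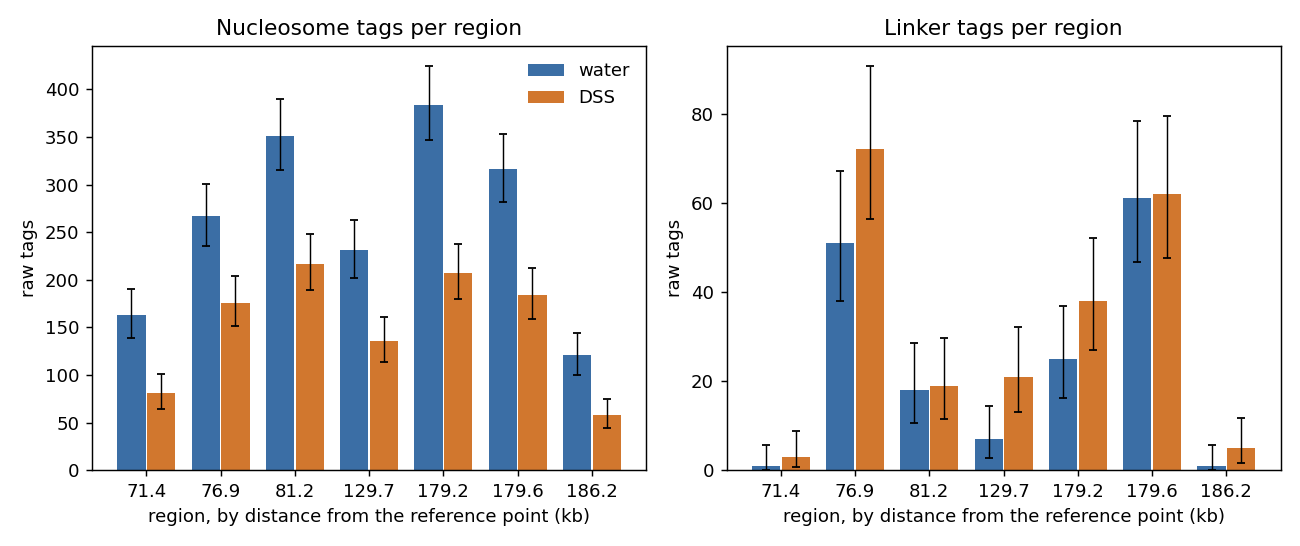
Bars give raw nucleosome tags (left) and linker tags (right) of each of the 7 regions in water and DSS, with exact Poisson 95% intervals as error bars and the distance from the reference point in kb below each pair. Nucleosome bars are lower in DSS in every region, and linker bars are the same height or higher in DSS, on a scale of far fewer tags.

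In 0 of the 21 pairs of the 7 regions did the intervals of the ratios lie apart. Such overlap does not show that the ratios are alike, and whether they differ between regions was not tested. The log2 ratio of DSS to water, with a pseudocount of 0.5, ran from -1.08 at 186.2 kb to -0.63 at 76.9 kb, with a median of -0.80. Over all 1000 water-enriched regions the median was -0.91, with quartiles of -1.20 and -0.70. The interval left out 1 in 7 of the 7 regions, and in 99.3% of the whole list, from which nothing can be read because the authors chose the list on these counts. More than 2-fold lower were 2 of the 7, at 71.4 and 186.2 kb, against 40.3% of the list. The regions at 71.4 and 186.2 kb also had the lowest water counts of the 7. By the authors' deposited score, the region at 179.2 kb ranked 106 and the one at 129.7 kb 254 among the 1000, and the other 5 ranked between 618 and 938. Summed over the 6 separate stretches, with the fuller region standing for the overlapping pair, the water library held 1517 nucleosome tags and the DSS library 875, a 1.77-fold difference (1.62 to 1.92).

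Tags in the columns headed "lin", read here as those on the linker between nucleosomes, did not show the same difference. The deposited score that chose the regions subtracts linker from nucleosome signal, so it favours regions with more linker tags in DSS, and the linker values below are a description of regions chosen in part on them. They numbered 1, 51, 18, 7, 25, 61 and 1 in water, from the nearest region to the farthest, and 3, 72, 19, 21, 38, 62 and 5 in DSS. Scaled by the totals, they were higher in DSS in 6 of the 7 regions, against 66.2% of the list. The region at 129.7 kb alone had an interval that left out 1, with a DSS to water ratio of 2.95 (1.21 to 8.20), and such an interval on the DSS side was found in 14.6% of the list. The 6 separate stretches together held 103 linker tags in water and 158 in DSS, a ratio of 1.51 (1.17 to 1.95). This sum leaves out the region at 179.6 kb, with 61 and 62 linker tags, because its overlapping neighbour holds more nucleosome tags. With all listed regions, where tags of the overlap count again, the log2 ratio was 0.40, against 0.59 for the stretches. Over the separate water-enriched regions of the whole genome the ratio of summed linker tags was 1.23 (1.21 to 1.26), which lies inside the interval of the window. The share of linker tags among all tags of a region was higher in DSS in each of the 7, for example 2.94% in water and 13.4% in DSS at 129.7 kb, and 16.0% and 29.0% at 76.9 kb. List medians were 2.38% in water and 7.14% in DSS.

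Counting nucleosome and linker tags together made the differences smaller but left all 7 intervals below 1, against 96.9% of the list. The difference at 76.9 kb, where linker tags are many, then came to 1.31-fold higher in water (1.102 to 1.55), and that at 71.4 kb, where they are few, to 1.99-fold (1.52 to 2.62). The linker part made up 28.4% of the deposited score at 76.9 kb and 34.2% at 129.7 kb, but 1.83% at 81.2 kb. The scaling also set the size: with tags scaled to the sum of all tags in both lists of regions, every log2 ratio moved up by 0.27, and all 7 intervals still left out 1.

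**Figure D3:**
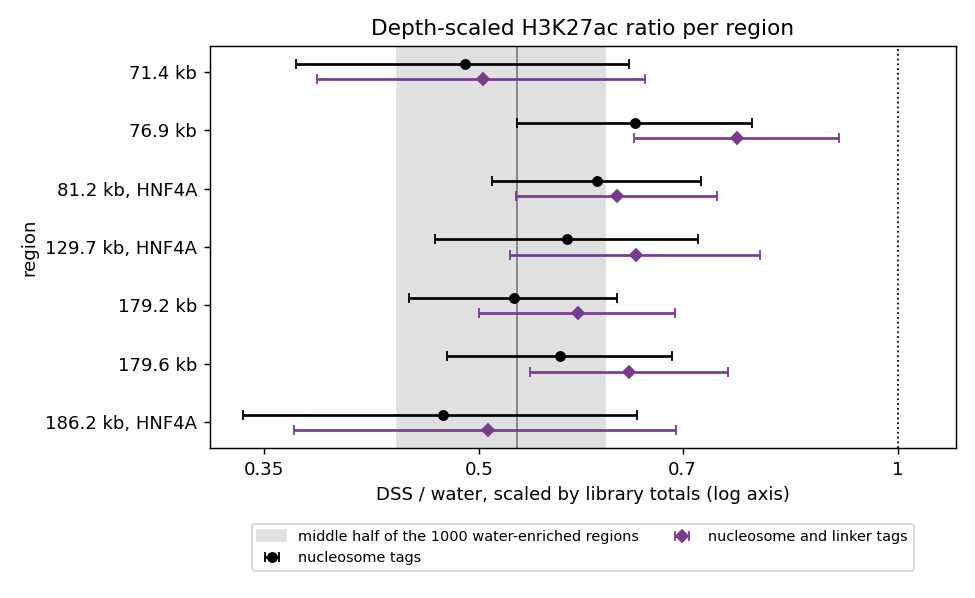
Points give the depth-scaled ratio of DSS to water per region on a log axis, for nucleosome tags (circles) and for nucleosome and linker tags together (diamonds), with exact conditional 95% intervals; the grey band and line mark the quartiles and the median of nucleosome ratios over the 1000 water-enriched regions. All intervals lie below 1 and overlap each other, and the 3 regions marked HNF4A, which overlap a peak in both HNF4A lists, are spread among the others.

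HNF4A peaks of the window were mostly found in both libraries. Of the 17 water peaks, 12 overlapped a DSS peak by at least 1 bp (70.6%, Wilson interval 46.9 to 86.7), and over all water peaks the share was 52.9%. Of the 13 DSS peaks, 10 overlapped a water peak (76.9%, 49.7 to 91.8), against 82.3% of all DSS peaks. The intervals of the window hold both shares of the whole lists. They treat neighbouring peaks as separate draws, and the HNF4A lists took part in the choice of the window. The shares are therefore a description, and whether they differ from the lists was not tested. These files do not give the depth behind the HNF4A peaks, and the water list is 1.67 times as long as the DSS list. Water peaks at 72.7 and 73.1 kb overlap each other, as do those at 102.6 and 102.7 kb. Merged into sites, 10 of 15 water sites were shared (66.7%, 41.7 to 84.8).

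The shared peaks spanned 158 kb, from 55617764 to 55775733, and lay on the same positions. The starts of a water peak and its DSS partner were 15 to 439 bp apart, with a median of 41 bp, and 11 of the 12 pairs shared at least 300 of their 600 bp. The exception was the weak water peak at 73.1 kb, which overlapped its DSS partner by 161 bp beside a stronger water peak.

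The highest-scored peak of the window was the same site in both libraries. In water it lay at 72.7 kb (55617764 to 55618363), with a score of 25.3 and rank 1024 of 17886. In DSS it lay at 72.6 kb (55617674 to 55618273), with a score of 28.4 and rank 702 of 10688. This site lies beside the H3K27ac region at 71.4 kb, with gaps of 787 bp to the water peak and 697 bp to the DSS peak. The peak at 186.2 kb (55731248 to 55731847 in water) ranked 1066 in water and 1284 in DSS. The peak at 201.0 kb (55746071 to 55746670) ranked 1147 in water and 3231 in DSS, and the one at 230.1 kb (55775134 to 55775733) 2172 and 5556. In the highest decile of the water list, which holds 3 of these water peaks, 97.9% of all peaks overlapped a DSS peak. Scores are the authors' and ranks come from lists of different length, so whether binding changed cannot be read from them.

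Weaker water peaks of the window were shared as well. Among the 8 water peaks in the upper ranks of their list (above the 50th percentile), 6 were shared, and over the whole list 75.3% of such peaks were. Among the 9 in the lower ranks, 6 were shared (66.7%, 35.4 to 87.9), where the whole list had 30.5%. Of these 6, the peaks at 73.1 and 102.6 kb share their DSS partner with a stronger water peak. As sites this was 4 of 7 (57.1%, 25.05 to 84.2), and over all such sites 25.2% were shared, so the interval of the window then just held the list's share. The peak at 92.1 kb (55637109 to 55637708) ranked 16195 of 17886 in water, and its DSS partner ranked 6362 of 10688.

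Single-list peaks were found toward both ends of the window and between the groups of regions. The 5 water-only peaks lay at 47.9, 49.2, 169.1, 175.8 and 237.4 kb. Their ranks in the water list were 17448, 16027, 8063, 13981 and 6201, in that order. The strongest of them, at 237.4 kb (55782450 to 55783049, score 11.6), lay 1.99 kb from a DSS-only peak at 234.8 kb (55779861 to 55780460), which was among the weakest of its list (rank 10261). None of the 5 water-only peaks lay within 2 kb of an H3K27ac region, the closest being the one at 175.8 kb, 2761 bp from the region at 179.2 kb.

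The other DSS-only peaks lay on either side of the reference point. One had its centre 0.9 kb above the point (55545963 to 55546562), with a score of 13.6 and rank 3649 of 10688. Its first base was 616 bp from the point, upstream of Klf4 under the reading given above. The nearest water peak was 46.4 kb away. In its decile of the DSS list 90.2% of peaks overlapped a water peak. Over all 3660 DSS peaks at least as strong, stronger deciles included, 178 (4.86%) overlapped none. Of the 1893 DSS-only peaks genome-wide, 9.30% ranked higher, and 30.9% lay at least as far from a water peak. The other (55526678 to 55527277) lay 18.4 kb on the far side of the point, with rank 7052, and was the only peak of either list in the window below the point. All 17 water peaks and 12 of the 13 DSS peaks lay above it. The authors listed H3K27ac regions only if at least 2 kb away from their reference points, per the list names, so acetylation at the start of Klf4 was not analysed here.

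H3K27ac and HNF4A were then joined by position. Of the 7 regions, 3 overlapped a water peak (42.9%, 15.8 to 74.95), against 45.9% of the water-enriched list. The same 3 overlapped a DSS peak, against 32.9% of the list. Regions with peaks of both libraries made up 30.5% of the list. In the list, 305 of 459 regions with a water peak (66.4%) also held a DSS peak, a share inside the interval of 3 of 3 (43.9 to 100%). A DSS peak of HNF4A was listed at each of these 3 regions, and the nucleosome tags of H3K27ac there were 1.65, 1.73 and 2.12-fold higher in water than in DSS. The direction of this H3K27ac difference was fixed by the choice of the list, so the pairing is not a finding.

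The bound regions were those at 81.2, 129.7 and 186.2 kb. At 81.2 kb the water peak (55626249 to 55626848, rank 3242) was centred 30 bp from the middle of the region and the DSS peak (rank 3119) 15 bp from it. At 186.2 kb the centres were 28.5 and 13.5 bp from the middle. At 129.7 kb the peaks ranked 9854 in water and 7898 in DSS and sat off the middle, by 109 and 199 bp. Log2 ratios of H3K27ac in these 3 ran from -1.08 to -0.72. In the 4 regions that no peak overlaps, at 71.4, 76.9, 179.2 and 179.6 kb, they ran from -1.03 to -0.63, so the ranges overlap. The region at 71.4 kb, which gave the -1.03, lay 787 bp from a water peak and 697 bp from a DSS peak. Without it the range was -0.92 to -0.63. Over the whole list the median was -0.81 in 305 regions with peaks of both libraries (quartiles -0.99 and -0.65) and -0.99 in 517 regions with none (-1.29 and -0.76). It was -0.93 in 154 regions with a water peak only and -0.78 in 24 with a DSS peak only. These classes also differ in tag level, with a median of 353 water nucleosome tags in regions with both peaks and 231 in those with none. Whether the log2 ratios differ between classes at like tag levels was not tested. The strongest region of the window, at 179.2 kb, had no peak of either library within 2 kb, and neither did the regions at 76.9 and 179.6 kb.

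Near the regions few peaks could be compared. The 5 water peaks within 2 kb of a region all overlapped a DSS peak (100%, 56.6 to 100), an interval that holds the 64.8% of the whole list. They make up 4 sites, since those at 72.7 and 73.1 kb share a DSS partner, and with an overlap of at least 300 bp 4 of the 5 were shared. Farther away, 7 of the 12 peaks were shared (58.3%, 31.95 to 80.7). Over the whole list there were 650 peaks near a water-enriched region, and 52.5% of the other peaks were shared. Of all water peaks 3.63% lie that near to such a region, and of all DSS peaks 4.03%; in the window it was 5 of 17 and 4 of 13, which follows in part from the choice of the window. Of the 10 shared DSS peaks, 6 lay farther than 2 kb from any water-enriched region, at 92.1, 102.7, 194.9, 199.2, 201.0 and 230.1 kb. Whether H3K27ac at those 6 differed between the libraries cannot be read from lists that hold only the 1000 most enriched regions of each direction.

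HNF4A peaks were also dense in the window. Since the HNF4A lists took part in the choice of the window, this density is a description and not a finding. Its 17 water peaks come to 48.6 per Mb, against 6.80 per Mb over the genome. Of 7518 tiles of 350 kb, 3982 held any water peak, 42 (0.559%) held at least 17 water peaks and 13 (0.173%) at least 13 DSS peaks. The tiles were laid from the start of each chromosome, whereas the window was placed around its features, which favours the window. On the lower side the water list was empty over a long stretch, since the nearest water peak below the window ended at 55140635, 452 kb before the first water peak inside. For the DSS list this stretch was 386 kb, up to the DSS-only peak that starts at 55526678. On the higher side the next water peak (55864743 to 55865342) lay 64.7 kb beyond the window. The nearest water-enriched regions outside lay 5951 kb below and 1566 kb above the window. The nearest DSS-enriched region lay 1122 kb from the closest of the 7 regions, centre to centre.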

How the data were processed

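H3K27ac and HNF4A were measured in 1 library per group. The H3K27ac lists hold raw tag counts per region, deposited by the authors with reads marked MAPQ20 per the file headers, and columns headed WT were read as water. The header of the DSS columns also carries the code r2, which no source used here explains, so whether it marks a replicate or a run is not known. The authors' deposited score of a region was rebuilt from the counts, which gave the library totals. HNF4A peaks of 600 bp carry a deposited score of a kind the files do not state. Build mm9 and the tools MACS2 and CASAVA 1.8.2 are named in the submitters' processing notes; whether samples were pooled is not given in the sources used here.

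Ratios were scaled by the totals, with exact conditional (Clopper-Pearson) 95% intervals. Log2 ratios used a pseudocount of 0.5, and shares Wilson intervals. Overlap meant at least 1 bp. Peak starts were counted from 1, and region coordinates are as deposited. Python 3.11.15 with scipy 1.17.1 was used, and the functions were tested on simulated data. Alternatives changed the scaling, tags, overlap rule, peak lists and window. All members of the window were described. The window and its members were chosen with earlier results of these data known.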

Additional observations from a re-analysis of the deposited data

How the results depend on the processing

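No result changed direction under the alternatives run, which says little. The choice of the regions fixed the direction of the nucleosome difference and favoured that of the linker difference, and shares have no direction. The median log2 ratio of nucleosome tags, -0.80, became -0.53 with tags scaled to the sum over both lists of regions and -0.67 with nucleosome and linker tags together. The first follows from the scaling, which moves every ratio by 0.27. It also took the regions at 81.2, 179.2 and 179.6 kb to -0.45, -0.64 and -0.53, outside their own intervals. The other 63 of 68 alternative values stayed within 1.5 times a count or within the interval of the value. The log2 ratio of single regions ran from -1.07 to -0.35 over their alternatives. The share of water peaks shared with DSS ran from 64.7% (11 of 17, overlap of at least 300 bp) to 81.8% (9 of 11, water peaks limited to as many as in DSS). Merging the overlapping peaks of a list was chosen after seeing the data. No paired analysis was possible because each group has 1 library, and for the same reason no library could be left out. Linker counts, as low as 1 tag, limit the single regions, and the few members limit the shares.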
